A study of Danio rerio with 54 samples.

Results

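The proteasome subunit genes of the zebrafish retina were followed through light-induced photoreceptor loss and regeneration. Members were taken by name: every gene of the count tables whose symbol begins with psm, a letter from a to g and a digit, which gave 53 of the 15245 genes counted. By the known role of each product, 16 belong to the 20S core, 5 are immunoproteasome-type beta subunits, 20 belong to the 19S cap, 4 are activators, 6 are assembly chaperones and 1, psmf1, is an inhibitor. The remaining member, psmc3ip, carries the prefix but encodes a recombination cofactor named for its binding to a cap ATPase, and is not a subunit.

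The proteasome is the barrel-shaped protease that degrades proteins tagged with ubiquitin in the cytosol and nucleus. Its 20S core is built of alpha rings that gate the entrance and beta rings that hold the active sites, and the 19S cap binds ubiquitin chains, removes them and unfolds the substrate with a ring of ATPases. In vertebrates, inflammatory signals such as interferon gamma induce alternative beta subunits that replace the standard catalytic ones and an alternative cap, PA28, encoded by psme1 and psme2. In mammals, subunit genes are also induced together by the transcription factor Nrf1 when proteasome activity is short.

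Retinas of adult albino zebrafish, 6 to 9 months old, were collected as single left eyes from individual animals, with some vitreous included, and RNA was measured by 3′ end sequencing of mRNA, which gives about 1 read per transcript whatever its length. Naive fish received no treatment and lived under 14 h of light and 10 h of dark. The authors describe them as age-matched. The column names of the naive libraries give a single age within the range of 6 to 9 months, and those of the time course give no age. All other fish were dark-adapted for 5 days. They were taken at once (0 h), or were exposed to 30 min of intense light of about 100000 lux and then to continuous light of about 10000 lux for 3 days, and were taken 24, 36 and 72 hours post lesion (hpl) and 5, 10, 14 and 28 days post lesion (dpl), with time counted from the start of the light and a normal light cycle resumed after 72 h. Each of the 9 groups held 6 retinas, of which replicates 1 to 3 and 4 to 6 of the time course came from 2 separate experiments.

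The time course was read from whole-number read counts and is given as CPM, the reads of a gene scaled to a fixed library total, adjusted by the TMM method. Libraries held 1111503 to 4040445 counted reads, except 5 dpl replicate 2, which held 228611 and had no read in 3 of the members. Of the 53 members, 52 had at least 5 reads in at least 6 of 48 libraries and entered the test with 13075 genes in all, and psmb11b, a beta subunit of the type known from the mammalian thymus, with 0 to 5 reads a library, did not. Changes were tested with edgeR's quasi-likelihood test with Benjamini-Hochberg adjustment over all 13075 genes, and a gene is said to rise or fall where the adjusted p was below 0.05. Photoreceptor markers were present at 0 h, with 8 rod genes summing to 28507 to 49372 CPM and 10 cone genes to 28605 to 47912 CPM, fell to 2699 to 4068 and 1921 to 3351 CPM at 24 hpl, and stood at 38338 to 47348 and 38032 to 46785 CPM at 28 dpl. In RNA of a whole retina, a change in the number of cells of a type cannot be told apart from a change in RNA per cell.

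Proteasome genes rose together after the lesion, measured against the dark-adapted 0 h retinas. Of 49 members compared with naive retinas, 31 were lower at 0 h (limma), against 26.9% of all genes. The median log2 difference over the 49 was -0.64. No time from 24 hpl to 14 dpl was compared with naive retinas. At 0 h all members together took 0.329% to 0.350% of the counted reads, with a median of 0.339%. At 24 hpl they took 0.599% to 0.726% with a median of 0.674%, and at 36 hpl 0.650% to 0.799% with a median of 0.720%. Every retina at both times lay above every retina at 0 h. The share was 0.544% to 0.605% at 72 hpl and 0.535% to 0.624% at 5 dpl. It was 0.395% to 0.428% in 10 dpl retinas, 0.384% to 0.394% in 14 dpl retinas and 0.357% to 0.406% in those of 28 dpl. This sum was thus still above the range of the 0 h retinas at 28 dpl, by a narrow margin. It includes the activator gene psme4b, whose reads summed to 1827 at 0 h and 3805 at 28 dpl. Without psme4b the shares of the 28 dpl retinas overlapped those of the 0 h retinas.

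Member by member, 43 of the 52 tested rose and 1 fell at 24 hpl, where 19.0% of all genes tested rose and 17.7% fell. At 36 hpl 48 rose and 1 fell, against 23.6% and 23.4% of all genes. At 72 hpl 40 rose and 1 fell, against 22.7% and 20.2%, and at 5 dpl 41 rose and 1 fell, against 17.5% and 14.3%. The median log2 fold change against 0 h over the members tested was 0.93 at 24 hpl, 1.04 at 36 hpl, 0.82 at 72 hpl and 0.81 at 5 dpl, whereas the medians over all genes tested were -0.10, -0.08, -0.04 and -0.02. The gene that fell was psme4b at each of these times. The highest mean level was at 36 hpl for 33 of the 52 members tested, at 24 hpl for 8, at 72 hpl for 4 and at 5 dpl for 5.

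**Figure D1:**
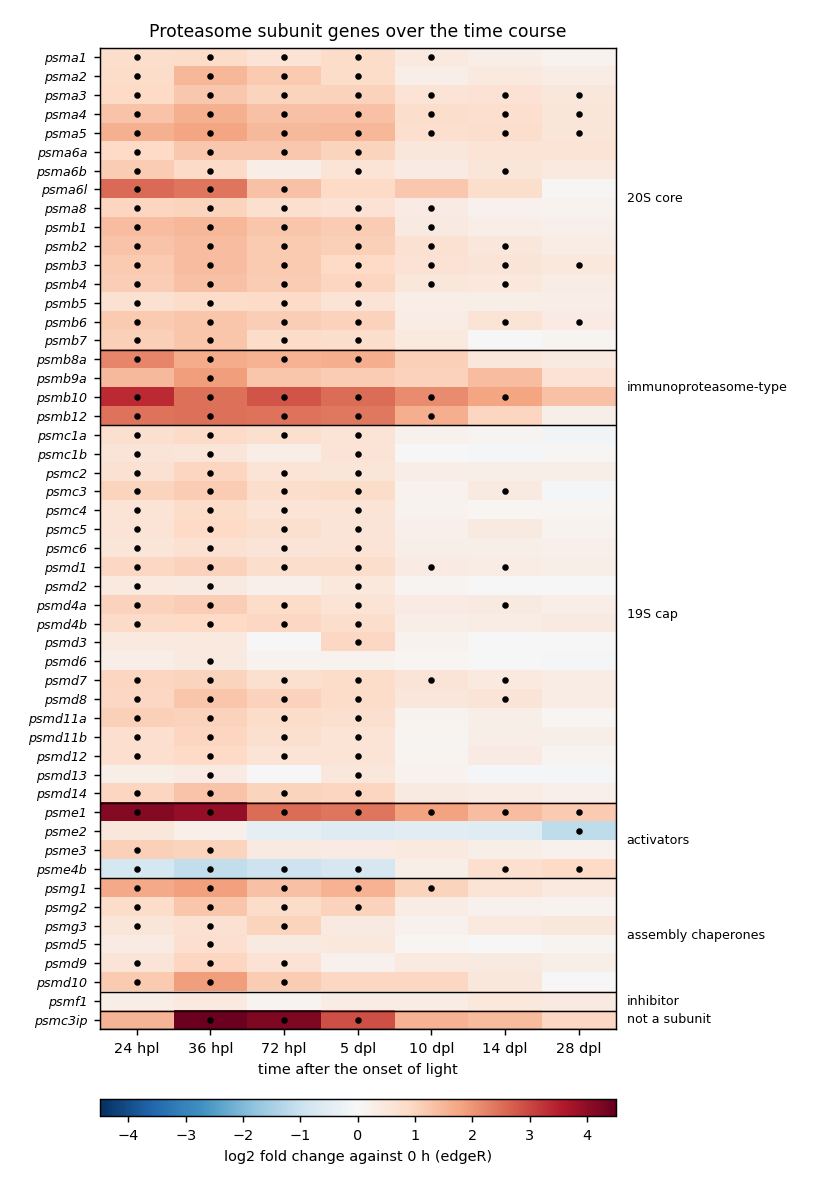
Log2 fold change against 0 h (color, edgeR) of the 52 proteasome members tested, one row per gene grouped by role, one column per time after the onset of light; a dot marks an adjusted p below 0.05. Most core, cap and chaperone rows are red from 24 hpl to 5 dpl and paler afterwards. The psme1 row is the darkest activator row, and psme4b is blue to 5 dpl and red at 14 and 28 dpl.

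The separation of individual retinas narrowed sooner than the number of calls, among the members and among all genes tested alike. In 25 of the 53 members all 6 retinas at 24 hpl lay above all 6 at 0 h, as did 10.1% of all genes tested. This held for 35 members at 36 hpl and 27 at 72 hpl, against 13% and 12.7% of all genes. In the 5 dpl retinas it held for 9 members, in those of 10 dpl for 5, in those of 14 dpl for 4 and in those of 28 dpl for 4, against 3.53%, 3.14%, 2.89% and 1.58% of all genes. The 5 dpl group includes the library of 228611 reads, and its part in the lower count there was not tested.

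All 16 core genes rose at 24 hpl and at 36 hpl, and 15 rose at 72 hpl and at 5 dpl. Their median log2 fold change was 1.12 at 24 hpl, 1.27 at 36 hpl, 1.16 at 72 hpl and 0.93 at 5 dpl. The 9 alpha ring genes had a median of 0.98 at 24 hpl, with a range of 0.78 to 2.54, and the 7 standard beta ring genes a median of 1.18, with a range of 0.69 to 1.38. The standard catalytic subunits are psmb6, psmb7 and psmb5, which carry the caspase-like, trypsin-like and chymotrypsin-like activities.

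The level of psmb6 was 49.6 to 68.5 CPM at 0 h with a median of 60.7, 115 to 174 CPM at 24 hpl with a median of 135, and 108 to 187 CPM at 36 hpl with a median of 140. The groups did not overlap, and the log2 fold change was 1.18 ± 0.12 (SE, n = 6) at 24 hpl (edgeR, adjusted p = 5.6e-12). The level of psmb7 was 81.9 to 144 CPM at 0 h with a median of 85.4 and 146 to 288 CPM at 24 hpl with a median of 210. Here too every 24 hpl retina was above every 0 h retina, by a narrow margin, with a log2 fold change of 1.07 ± 0.22 (edgeR, adjusted p = 9e-05). The level of psmb5 was 35.3 to 67.2 CPM at 0 h with a median of 39.0, 53.5 to 112 CPM at 24 hpl with a median of 62.8, and 49.6 to 112 CPM at 36 hpl with a median of 75.6. The groups overlapped because 0 h replicate 5 had the 67.2 CPM while the other 5 retinas of that group had at most 43.4 CPM, and the log2 fold change was 0.69 ± 0.17 at 24 hpl (edgeR, adjusted p = 0.00062). By 28 dpl the medians were 76.6 CPM for psmb6, 113 CPM for psmb7 and 49.3 CPM for psmb5, and of these psmb6 was still called, with a log2 fold change of 0.37 ± 0.12 (edgeR, adjusted p = 0.047).

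Among the alpha ring genes, the gate-forming ring of the core, psma6l changed most. It had 0 to 3.78 CPM at 0 h with a median of 1.59 and 9.30 to 14.2 CPM at 24 hpl with a median of 11.2. The groups did not overlap, and the log2 fold change was 2.54 ± 0.48 (edgeR, adjusted p = 2e-05). This rested on 19 reads over the 0 h libraries, with a median of 3 a library, and on 144 reads at 24 hpl. The gene psma6l thus met the read filter mainly through later groups, where it was higher, which favors large rises. It is 1 of 3 psma6 copies, and reads of close copies can be assigned to either, so its own share of the change is uncertain. The other copies, psma6a and psma6b, rose as well at 24 hpl.

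The immunoproteasome-type genes had low levels and, taken as a group, a higher median fold change than the standard core genes at each of these times. These genes encode beta subunits that take the place of the standard catalytic ones, psmb8a in that of psmb5, psmb9a and its fish relative psmb12 in that of psmb6, and psmb10 in that of psmb7. Of the 4 tested, 3 rose at 24 hpl, 4 at 36 hpl, 3 at 72 hpl and 3 at 5 dpl, and their median log2 fold changes were 2.30, 2.18, 2.00 and 2.01. At 0 h psmb9a, psmb10 and psmb12 had medians of 1.5, 1.5 and 3.5 reads a library. They thus met the filter of 5 reads in 6 libraries mainly through later groups, where they were higher, which favors large rises. The difference from the core genes was not tested. In the RefSeq annotation of assembly GRCz12tu, psmb12 lies between psmb8a and psmb9a among antigen-processing genes, and psmb10 lies elsewhere.

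The level of psmb10 was 0 to 3.24 CPM at 0 h with a median of 0.767, 4.72 to 19.2 CPM at 24 hpl with a median of 14.0, and 3.21 to 15.2 CPM at 36 hpl with a median of 6.11. It rested on 12 reads over the 0 h libraries, of which 3 had none, and on 166 reads at 24 hpl. All 24 hpl retinas lay above all 0 h retinas, and the log2 fold change was 3.36 ± 0.51 (edgeR, adjusted p = 2.1e-07). The level of psmb8a was 3.11 to 6.14 CPM at 0 h with a median of 3.85, 10.9 to 37.8 CPM at 24 hpl with a median of 19.4, and 6.95 to 28.6 CPM at 36 hpl with a median of 10.1. Again the groups did not overlap, and the log2 fold change was 2.18 ± 0.35 at 24 hpl (edgeR, adjusted p = 7.5e-07). The level of psmb12 was 0 to 4.32 CPM at 0 h with a median of 1.88 and 6.84 to 18.6 CPM at 24 hpl with a median of 14.3, from 22 and 163 reads. These groups were also apart, with a log2 fold change of 2.43 ± 0.40 (edgeR, adjusted p = 1.4e-06).

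The level of psmb9a was 0 to 2.05 CPM at 0 h with a median of 0.879, 0.497 to 5.42 CPM at 24 hpl with a median of 2.39 and 1.87 to 5.89 CPM at 36 hpl with a median of 3.30. The groups overlapped at both times, and the change passed the test at 36 hpl, with a log2 fold change of 1.89 ± 0.66 (edgeR, adjusted p = 0.015), and not at 24 hpl, with 1.45 ± 0.68 (edgeR, adjusted p = 0.087). With 10 reads over all 0 h libraries, smaller changes of this gene were not detectable at this depth.

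Read for read, the standard subunits remained the bulk of the core. Immunoproteasome-type genes made up 0.351% to 1.18% of the reads of core and immunoproteasome-type genes together at 0 h with a median of 0.669%, and 1.3% to 2.59% at 24 hpl with a median of 1.57%. The 2 groups did not overlap. At 36 hpl the share was 1.0% to 1.80% with a median of 1.03%, which overlapped 0 h, and at 28 dpl it was 0.543% to 1.1%.

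Genes listed as markers of immune cells moved at the same times. The 3 leukocyte genes counted summed to 17.4 to 25.6 CPM at 0 h with a median of 20.1 and to 81.8 to 172 CPM at 24 hpl with a median of 118, and 2 of them rose. The 9 microglia and macrophage genes summed to 707 to 1029 CPM at 0 h and 891 to 1806 CPM at 24 hpl, with 5 higher and 2 lower. The 3 genes listed for neutrophils summed to 13.1 to 19.4 and 53.4 to 243 CPM, with 2 higher. Among these 3, mmp9 had medians of 6.92 and 102 CPM, lyz 3.48 and 19.3 CPM and mpx 4.65 and 8.85 CPM. The cells that expressed these genes were not identified. The 6 T cell genes summed to 28.6 to 51.2 CPM at 0 h and 17.5 to 35.0 CPM at 24 hpl, with 1 lower. Their part in the rise of the immunoproteasome-type genes was not tested.

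**Figure D2:**
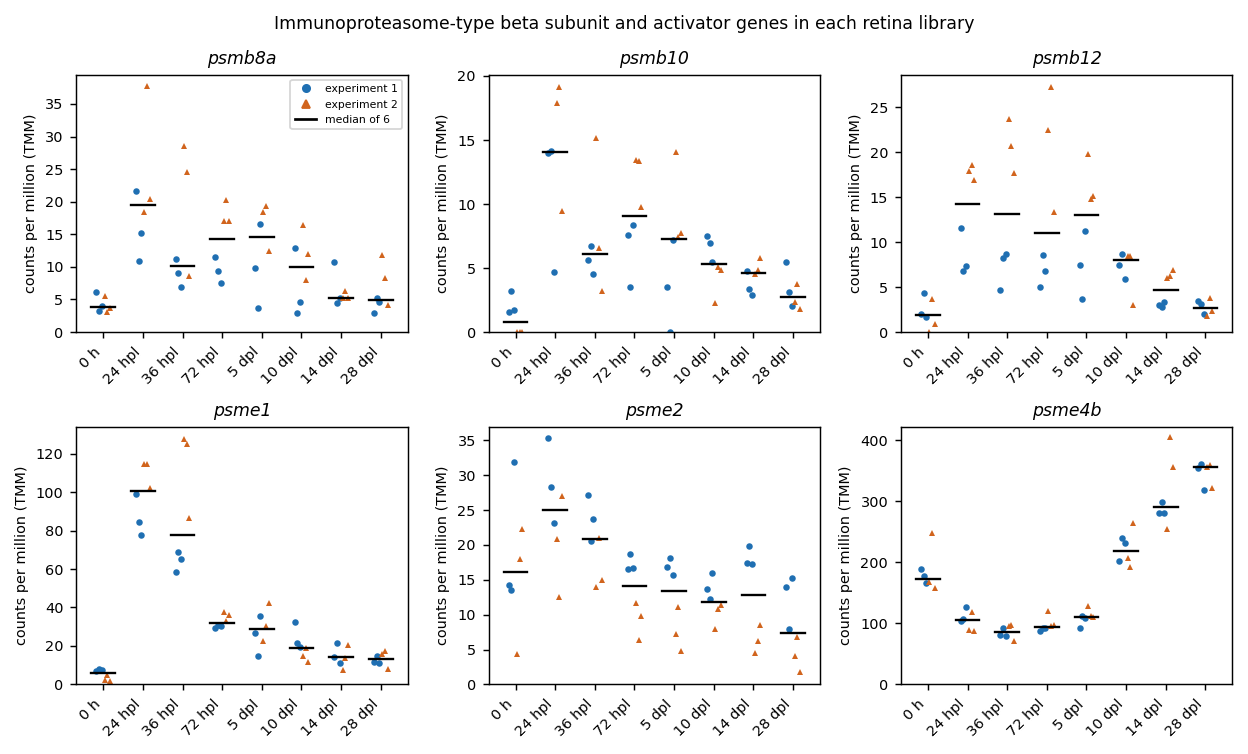
Level of immunoproteasome-type and activator genes in each retina (CPM; points are retinas, circles of experiment 1 and triangles of experiment 2, and black bars are medians) at each time of the series. The psme1 points at 24 and 36 hpl lie between 58.5 and 128 CPM, all above the 1.86 to 8.09 CPM of 0 h, while the psme4b points fall to 70.7 to 97.1 CPM at 36 hpl and reach 318 to 362 CPM at 28 dpl.

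Of the 20 cap genes, 17 rose at 24 hpl, 19 at 36 hpl, 15 at 72 hpl and 19 at 5 dpl. Their median log2 fold changes, 0.75, 0.91, 0.72 and 0.61, were below those of the core genes at the same times, 1.12, 1.27, 1.16 and 0.93. The ratio of reads showed the same: at 0 h there were 57.4 to 84.1 core reads per 100 cap reads with a median of 71.7, and at 24 hpl 87.4 to 104 with a median of 94.7. The retinas of 24 hpl all lay above those of 0 h. At 28 dpl the ratio was 74.5 to 92.3 with a median of 82.5, which overlapped 0 h.

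Within the cap, the 7 ATPase genes of the base, psmc1a to psmc6, which drive unfolding, all rose at 24 hpl, with log2 fold changes of 0.53 to 0.99 and a median of 0.62. The 4 other base genes all rose, with a median of 0.89, and 6 of the 9 lid genes rose, with a median of 0.77. The lid gene psmd14 encodes the deubiquitinase that cuts ubiquitin from the substrate. Its level was 32.3 to 60.4 CPM at 0 h with a median of 34.3, 58.1 to 111 CPM at 24 hpl with a median of 66.9, and 66.3 to 117 CPM at 36 hpl with a median of 98.1. At 24 hpl the groups overlapped through 0 h replicate 5, which had the 60.4 CPM, and at 36 hpl they did not. The log2 fold change was 0.98 ± 0.16 at 24 hpl (edgeR, adjusted p = 9.2e-07) and 1.28 ± 0.16 at 36 hpl (edgeR, adjusted p = 9.9e-10).

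The base also holds the receptors for ubiquitin and for shuttle proteins, psmd2 and the 2 copies of psmd4. The level of psmd4a was 65.1 to 95.2 CPM at 0 h with a median of 82.0 and 132 to 202 CPM at 24 hpl with a median of 167, without overlap, and its log2 fold change was 1.04 ± 0.12 (edgeR, adjusted p = 2.4e-10). The level of psmd4b was 25.4 to 72.5 CPM at 0 h with a median of 41.2 and 70.6 to 91.7 CPM at 24 hpl with a median of 76.4, with an overlap, and its log2 fold change was 0.86 ± 0.17 (edgeR, adjusted p = 2.3e-05). For psmd2 the change was smaller: 90.1 to 130 CPM at 0 h with a median of 108 and 126 to 189 CPM at 24 hpl with a median of 146, which overlapped, with a log2 fold change of 0.45 ± 0.12 (edgeR, adjusted p = 0.0016).

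For at least 2 cap genes the 5 dpl value rested in part on the shallow library. The lid subunit psmd3 had 129 to 191 CPM in 5 of the 5 dpl retinas and 592 CPM, from 163 reads, in 5 dpl replicate 2. The lid subunit psmd13 had 132 to 159 CPM in the 5 and 283 CPM, from 78 reads, in that library. With it the log2 fold change of psmd3 at 5 dpl was 0.92 ± 0.22 (edgeR, adjusted p = 0.00084), and without it 0.50 ± 0.16 (edgeR, adjusted p = 0.0099). For psmd13 the values were 0.50 ± 0.13 with it and 0.35 ± 0.11 without it, and both passed the test. The cap gene psmc1b had its highest mean at 5 dpl, from 105 to 539 reads a library with a median of 489. Its log2 fold change there was 0.996 in experiment 1, which holds the shallow library, and 0.21 in experiment 2. At 72 hpl the experiments also differed, with 0.65 and -0.04. The part of the shallow library in the psmc1b value was not tested. Without that library all 42 calls at 5 dpl against 0 h were kept.

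The activators, alternative caps that open the core without ubiquitin, went in different directions. The PA28 alpha gene psme1 had 1.86 to 8.09 CPM at 0 h with a median of 6.07, 77.6 to 115 CPM at 24 hpl with a median of 101, and 58.5 to 128 CPM at 36 hpl with a median of 77.9. It was back at 29.2 to 37.7 CPM in the 72 hpl retinas and 14.5 to 42.3 CPM in those of 5 dpl. The range was 11.4 to 32.4 CPM at 10 dpl, then 7.53 to 21.5 CPM at 14 dpl and finally 7.79 to 17.2 CPM at 28 dpl. All retinas from 24 hpl to 10 dpl lay above all retinas at 0 h, and the last 2 groups overlapped them. Its log2 fold change was 4.11 ± 0.27 at 24 hpl (edgeR, adjusted p = 1e-18), the largest of all members at that time, and still 1.19 ± 0.31 at 28 dpl (edgeR, adjusted p = 0.0085).

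Its partner in the PA28 ring, psme2, had 4.34 to 31.9 CPM at 0 h with a median of 16.2, 12.6 to 35.3 CPM at 24 hpl with a median of 25 and 1.83 to 15.3 CPM at 28 dpl with a median of 7.32. The groups overlapped at both times. Its log2 fold change was 0.52 ± 0.28 at 24 hpl (edgeR, adjusted p = 0.14) and -1.13 ± 0.30 at 28 dpl (edgeR, adjusted p = 0.012). The gene of the nuclear PA28 gamma ring, psme3, had 17.7 to 41.6 CPM at 0 h with a median of 28.5 and 53.1 to 70.5 CPM at 24 hpl with a median of 59.2. It did not overlap, rose by a log2 fold change of 1.07 ± 0.21 (edgeR, adjusted p = 2.9e-05), and was no longer called at 72 hpl, with 0.39 ± 0.21.

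The gene of PA200, psme4b, a large nuclear activator known in mammals for its role in degrading acetylated histones, took the opposite course. It had 158 to 248 CPM at 0 h with a median of 172, 87.3 to 126 CPM at 24 hpl with a median of 105, 70.7 to 97.1 CPM at 36 hpl with a median of 86.1, 86.8 to 120 CPM at 72 hpl and 92.7 to 128 CPM at 5 dpl. It then stood at 193 to 265 CPM at 10 dpl with a median of 220, 255 to 406 CPM at 14 dpl with a median of 291 and 318 to 362 CPM at 28 dpl with a median of 356. Every retina from 24 hpl to 5 dpl was below every 0 h retina, and every retina at 14 and 28 dpl was above. The log2 fold change was -0.80 ± 0.12 at 24 hpl (edgeR, adjusted p = 1.2e-07), -1.09 ± 0.12 at 36 hpl (edgeR, adjusted p = 2.6e-11) and 0.91 ± 0.12 at 28 dpl (edgeR, adjusted p = 6.6e-08). Rod and cone markers fell and returned over the same times, with 6 of 8 rod and all 10 cone genes lower at 24 hpl, and their part in the course of psme4b was not tested.

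The chaperones that assemble the core and the cap base rose with the subunits, 5 of 6 at 24 hpl, 6 at 36 hpl, 5 at 72 hpl and 2 at 5 dpl. Their median log2 fold changes were 0.71, 1.1, 0.91 and 0.70. The level of psmg1, whose product pairs with that of psmg2 to build the alpha ring, was 8.71 to 15.9 CPM at 0 h with a median of 9.82 and 26.4 to 50.9 CPM at 24 hpl with a median of 39.3. The groups did not overlap, and the log2 fold change was 1.70 ± 0.29 (edgeR, adjusted p = 3.1e-06). The level of psmg2 was 5.69 to 10.7 CPM at 0 h with a median of 8.94 and 10.5 to 25.2 CPM at 24 hpl with a median of 14.9. That of psmg3, another core chaperone, was 9.30 to 23.7 CPM with a median of 19.4 and 21.9 to 35.3 CPM with a median of 26.7. Both overlapped 0 h at 24 hpl and both passed the test, with log2 fold changes of 0.83 ± 0.24 for psmg2 (edgeR, adjusted p = 0.0053) and 0.55 ± 0.22 for psmg3 (edgeR, adjusted p = 0.048). Among the chaperones of the cap base, psmd10 and psmd9 rose at 24 hpl and psmd5 did not pass the test until 36 hpl, where its log2 fold change was 0.74 ± 0.24 (edgeR, adjusted p = 0.0082). Without 0 h replicate 5 the psmd10 value at 24 hpl went from 1.16 to 0.95 and its adjusted p from 0.026 to 0.069 (edgeR).

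The inhibitor gene psmf1 (PI31) had 11.4 to 31.6 CPM at 0 h with a median of 25.9, 18.2 to 43.5 CPM at 24 hpl with a median of 26.6 and 20.5 to 45 CPM at 36 hpl with a median of 29.8. The groups overlapped at every time, and its log2 fold changes, 0.13 at 72 hpl to 0.46 at 14 dpl, passed the test at none of the 7 times. The recombination cofactor psmc3ip was nearly absent at 0 h, with 0 to 1.08 CPM, and had 0 to 2.10 CPM at 24 hpl and 5.61 to 13.5 CPM at 36 hpl with a median of 8.31. It rose later than the subunits, with a log2 fold change of 4.41 ± 0.72 at 36 hpl (edgeR, adjusted p = 1e-06).

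From one time to the next, few members were called before 10 dpl, as were few of all genes tested. From 24 to 36 hpl, 3 rose (psma2, psma4 and psmc3ip) and 0 fell, against 6.20% and 5.25% of all genes; 2 had an unadjusted p below 0.05 for a fall, and DESeq2 and limma each called 0. From 36 to 72 hpl, 0 rose and 5 fell (psma6b, psmc2, psmd13, psme1 and psme3), against 6.68% and 5.92%. An unadjusted p below 0.05 was met by 0 members for a rise and 18 for a fall (edgeR). DESeq2 and limma each called 0 higher. The median log2 fold change was -0.24 over the members tested and 0.02 over all genes. The number that fell depended on the processing: DESeq2 called 12 lower and limma 3, and without 5 dpl replicate 2, or without 0 h replicate 5, edgeR called 10. For psme1 the step was large, with a log2 fold change of -1.43 ± 0.21 (edgeR, adjusted p = 1.1e-06).

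From 72 hpl to 5 dpl, 2 rose (psmd3 and psmd13) and 2 fell (psmg3 and psmd9), against 6.54% and 6.96% of all genes. Without 5 dpl replicate 2 both falls were lost, with adjusted p = 0.076 and 0.062 (edgeR). The rise of psmd3 went from 0.89 ± 0.22 to 0.47 ± 0.15 (edgeR, adjusted p = 0.031) and that of psmd13 from 0.52 ± 0.13 to 0.36 ± 0.11 (edgeR, adjusted p = 0.016), while psma6b was then called higher and psmc3ip lower. From 5 to 10 dpl, 1 rose and 20 fell, against 5.75% and 6.81%. The rise was that of psme4b, with a log2 fold change of 1.02 ± 0.12 (edgeR, adjusted p = 2.5e-09). The falls included 7 of 16 core genes and 12 of 20 cap genes, and the median over all members tested was -0.41. Without 5 dpl replicate 2 the fall of psmd3, -0.75 ± 0.22 (edgeR, adjusted p = 0.013), went to -0.32 ± 0.15 (edgeR, adjusted p = 0.16).

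Fewer members stood above 0 h at the late times. At 10 dpl 15 members rose and 0 fell, against 7.06% and 2.85% of all genes, and at 14 dpl 16 rose and 0 fell, against 8.50% and 4.67%. None had an unadjusted p below 0.05 for a fall at either time, and DESeq2 and limma each called 0 lower. At 28 dpl 7 rose and 1, psme2, fell, against 4.72% and 3.36%. The 7 were psma3, psma4, psma5, psmb3 and psmb6 of the core and the activators psme1 and psme4b. Of the 16 core genes 9 rose at 10 dpl, 8 at 14 dpl and 5 at 28 dpl. Of the 20 cap genes 2 rose at 10 dpl and 5 at 14 dpl. At 28 dpl the cap had 0, while 6 had an unadjusted p below 0.05 and DESeq2 and limma each called 1. The median log2 fold change of the core was 0.46, 0.53 and 0.35 at these times and that of the cap 0.18, 0.28 and 0.15. The difference between core and cap was not tested.

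The alpha ring gene psma5 was among the core genes still called at 28 dpl, with a log2 fold change there above the core median. It had 22.8 to 43.6 CPM at 0 h with a median of 28.2, 57 to 196 CPM at 36 hpl with a median of 106, and 29 to 74.8 CPM at 28 dpl with a median of 40.4. The 28 dpl retinas overlapped those of 0 h, and the log2 fold change was 0.56 ± 0.15 (edgeR, adjusted p = 0.014). It was 0.35 in experiment 1 and 0.74 in experiment 2. Of the immunoproteasome-type genes, psmb10 and psmb12 were still called at 10 dpl, psmb10 at 14 dpl with 1.78 ± 0.56 (edgeR, adjusted p = 0.026), and 0 at 28 dpl, where 1 had an unadjusted p below 0.05, DESeq2 called 0 and limma 1. Without 0 h replicate 5 the psmb10 value at 14 dpl was 1.47 (edgeR, adjusted p = 0.073), and the psmb6 call at 28 dpl was lost (edgeR, adjusted p = 0.11).

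**Figure D3:**
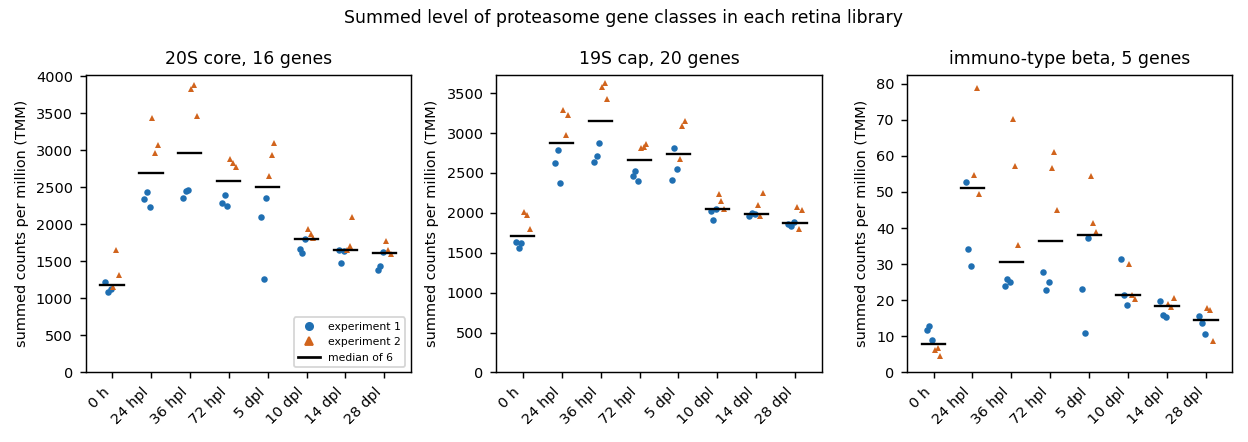
Summed level of the core, immunoproteasome-type and cap genes in each retina (CPM; points are retinas, circles of experiment 1 and triangles of experiment 2, and black bars are medians) at each time of the series. The core sum approaches the cap sum from 24 hpl to 5 dpl: there were 94.7 core reads per 100 cap reads at 24 hpl against 71.7 at 0 h (medians).

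Members rose early in both experiments, each with 3 retinas per group. At 24 hpl 37 members rose in experiment 1, where 2000 of all 12726 genes tested did, and 42 in experiment 2, where 2068 of 12023 did. At 36 hpl 37 and 46 members rose, against 2301 and 2763 of all genes, with psme4b lower at both times in both. The median log2 fold changes were 0.90 and 1.06 at 24 hpl and 1.0 and 1.32 at 36 hpl. For psme1 the log2 fold change at 24 hpl was 3.57 in experiment 1 and 5.14 in experiment 2, for psmb8a 1.88 and 2.66, and for psmb12 1.72 and 3.50. The experiments were farther apart for psma6l, with 1.88 and 4.62, and for psmd10, with 0.48 and 3.53 at 24 hpl and -0.15 and 3.95 at 72 hpl, from 19 and 48 reads over all 0 h libraries. For psma6a the values at 24 hpl were 0.47 and 1.47. For psmb10 it was 2.38 in experiment 1, and in experiment 2 all 3 of the 0 h libraries were at 0. Those differences between experiments were not tested.

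The dark-adapted retinas were themselves low in core transcripts against untreated ones. Naive retinas were read from the table of pseudo-counts, counts that edgeR adjusts to a common library size, for 49 members among 11700 genes tested with limma on log2(pseudo-count + 1). The totals of these values still differed between groups. They were 2497761 to 2707270 in naive retinas, 1722570 to 2258728 at 0 h and 1901193 to 2216505 at 28 dpl. At 0 h 1 member was higher than in naive retinas and 31 were lower, where 26.5% and 26.9% of all genes were. All 15 core genes tested were lower at 0 h, by log2 differences of -1.32 to -0.55 with a median of -0.86, and 10 of 20 cap genes, with a median of -0.38. The median over all genes tested was 0.02. With the pseudo-counts rescaled by TMM, 30 members were lower than naive at 0 h and 17 at 28 dpl, and 1 was higher at each time (limma).

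The catalytic subunit psmb5 had 116 to 196 pseudo-counts in naive retinas with a median of 147, 68.4 to 128 at 0 h with a median of 73.8 and 83.8 to 138 at 28 dpl with a median of 94.3. The ranges overlapped, and the log2 difference of 0 h from naive was -0.86 ± 0.17 (limma, adjusted p = 0.00023). The structural beta subunit psmb4 had 593 to 819 pseudo-counts in naive retinas with a median of 687, 306 to 505 at 0 h with a median of 320 and 395 to 517 at 28 dpl with a median of 427. Neither group reached the naive range, and the log2 differences were -1.03 ± 0.13 at 0 h (limma, adjusted p = 8.7e-07) and -0.67 ± 0.13 at 28 dpl (limma, adjusted p = 0.00035). For psme4b the naive retinas had 854 to 1096 pseudo-counts, the 0 h retinas 304 to 472 and the 28 dpl retinas 620 to 684. The 3 groups did not overlap, and the log2 difference was -1.47 ± 0.11 at 0 h (limma, adjusted p = 3.1e-09) and -0.53 ± 0.11 at 28 dpl (limma, adjusted p = 0.00088).

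At 28 dpl 1 member was higher than in naive retinas and 17 were lower, against 19.7% and 17.6% of all genes, with 10 of 15 core genes and 6 of 20 cap genes among the lower ones and medians of -0.50 and -0.18. The gene above naive at both times was psme2, with 0.105 to 8.06 pseudo-counts in naive retinas and a median of 3.29, 8.44 to 59.4 at 0 h and a median of 30.8, and 3.37 to 29.8 at 28 dpl and a median of 14.0. Naive and 0 h retinas did not overlap, naive and 28 dpl retinas did, and the log2 differences were 3.15 ± 0.57 (limma, adjusted p = 7.5e-05) and 2.08 ± 0.57 (limma, adjusted p = 0.0064). The naive median lay below the value of 5 used as the filter. The gene psme2 thus entered this comparison mainly through the 0 h and 28 dpl retinas, where it was higher, which favors large differences. With naive values this low, the size of the psme2 differences is uncertain. Of the 6 T cell genes 4 were also higher than naive at 0 h and 4 at 28 dpl, and their part in the psme2 value was not tested. Both comparisons share the naive retinas, and the 0 h retinas are also the reference of the time course. The naive libraries carry the names of neither experiment, so that untreated retinas and their set of libraries cannot be told apart.

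**Figure D4:**
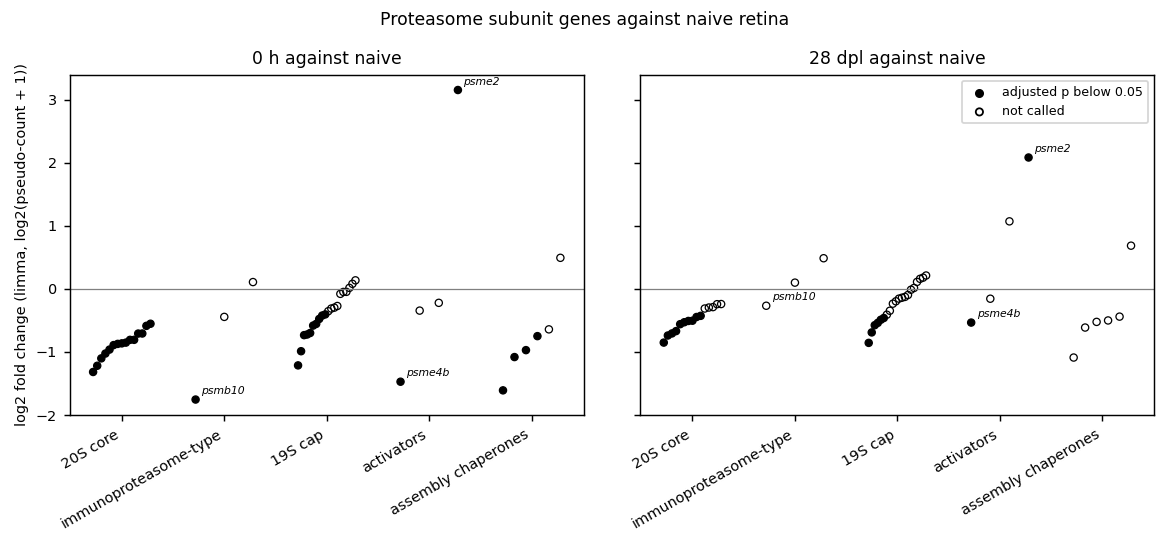
Log2 difference from naive retinas (limma, log2(pseudo-count + 1) scale) of the members tested other than psmf1, at 0 h and at 28 dpl, by role; filled points had an adjusted p below 0.05. The 15 core genes lie between -1.32 and -0.55 at 0 h, and psme2 is the filled point at 3.15.

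Genes that work with the proteasome were read from lists. Of 8 proteasome genes whose names fall outside the pattern, 6 rose at 24 hpl, with a median log2 fold change of 0.72, among them the maturation factor pomp (0.71), the ubiquitin receptor adrm1 (0.72) and the cap-associated genes shfm1 (0.83) and txnl1 (1.02). Of 19 ubiquitin and shuttle genes 10 rose, among them the autophagy receptor sqstm1 (2.08), the ubiquitin fusion gene rps27a (1.15) and the segregase vcp (1.01). Of 22 genes of the Nrf1 and Nrf2 route 11 rose, among them the large Maf gene mafbb (4.29), prdx1 (2.02), txnrd1 (1.70) and gclc (1.05), the last 3 being antioxidant genes. Of 13 antigen-processing genes tested 9 rose, among them tapbp.1 (3.33), calr3b (2.27), calr3a (1.75) and pdia3 (1.67), chaperones of peptide loading. Of 11 interferon gamma response genes tested 7 rose and 1 fell, among them irf1b (4.18), gbp1 (3.95), irf9 (2.54) and stat1a (1.02). In all genes tested 19.0% rose and 17.7% fell at 24 hpl.

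The genes outside the pattern whose log2 CPM followed the mean of the 36 core and cap members most closely over the 48 libraries were the ribosomal protein genes rpl10, rps3a, rpsa, rpl23 and rpl35, the chaperonin gene cct3, faua, which encodes a ribosomal protein fused to a ubiquitin-like one, the elongation factor gene eef1a1l1, serbp1a and hn1b, with Pearson correlations of 0.953 to 0.965. These points share libraries, depth and the time course, so that the values are a description. Among the members, psmb4 was closest to that mean, with 0.968, and psme4b farthest, with -0.665, while psme2, psmf1, psmd5 and psmd3 had 0.120 to 0.188.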

How the data were processed

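RNA of single retinas was sequenced from the 3′ end and, per the labels and the methods, the authors aligned reads to the zebrafish genome (build named dR10) with STAR, tabulated genes with HTSeq and compared groups with edgeR, with versions not given in the sources used here. The authors deposited raw counts per gene for the 48 time-course libraries, and a table of edgeR pseudo-counts, read here as a signal, for all 54. Columns of the authors' own comparisons (log2 fold changes, mean log2 CPM, p-values and false discovery rates) were not used. The repeated 0 h columns differed in 0 values between tables, and 12 pseudo-count rows whose names had become dates were left out.

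Counts were fitted with edgeR 4.0.16 in R 4.3.3 (TMM scaling, quasi-likelihood test, group and experiment as terms, a minimum of 5 reads in 6 or more libraries), with Benjamini-Hochberg adjustment over 13075 genes and a threshold of 0.05. The experiment was read from the column names. Naive, 0 h and 28 dpl pseudo-counts were compared with limma 3.58.1 (trend) on log2(value + 1), for 11700 genes that reached a value of 5 in 6 or more of the 18 libraries. On simulated data with 100 genes changed at each fold, the edgeR fit of 24 hpl against 0 h found 50% of the 2-fold changes and 82% of the 4-fold ones. It called 5 unchanged genes, in a fit of 12881 genes. The limma fit of 0 h against naive found 43% and 87%. Far fewer genes were changed than were called in the data, where 2483 rose and 2308 fell at 24 hpl. These shares thus do not give the share of true changes found there. Values ± are standard errors. For edgeR they are approximate, the size of the log2 fold change over the square root of the F value of its test. The p-values weigh a difference between groups against the spread between retinas.

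Every gene matching the name pattern is a member. Values were given for members fixed by role (catalytic subunits and their alternatives, activators, psmd14, the base receptors, psmg1 to psmg3 and psmf1) and for the 6 largest called rises and any fall at 24 hpl; for other lists, at most 4 genes with the smallest adjusted p. Values of psma5, psmb4, psmd3, psmd5, psmd10, psmd13 and psmc3ip were added after they had been seen. Members and lists were chosen with earlier results of these data known. Reads of near-identical copies (psma6a, psma6b and psma6l; psmc1a and psmc1b; psmd4a and psmd4b; psmd11a and psmd11b) may have been split between them. Alternatives were other scalings (relative log expression, total counts only), no filter, no experiment term, a replicate block, each experiment alone, leaving out 5 dpl replicate 2, DESeq2 1.42.0 and limma for the counts, and other pseudocounts, rescaling, a block and leaving out each replicate for the naive comparison. Leaving out 0 h replicate 5, whose opsin levels stood apart, was chosen after seeing the data. All 53 members were found in RefSeq GRCz12tu, 52 by symbol and psma2 by a synonym, and no coordinates were used because the builds differ. A motif search of promoters was not run.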

Additional observations from a re-analysis of the deposited data

Results flagged for a closer look

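For 20 members chosen by role, each group of 6 retinas was examined for a retina standing apart from the other 5 by Dixon's test at the 95% level. Of 180 groups, 14 held such a retina, where chance marks about 1 in 20 groups. At 0 h it was replicate 5 for psmb5 (67.2 CPM against 35.3 to 43.4 in the others), for psmd14 (60.4 against 32.3 to 36.8) and for psme4b (248 against 158 to 189). Without this retina these calls against 0 h were lost (edgeR): psmd10 at 24 hpl (adjusted p = 0.069) and at 72 hpl (0.084), psma6l at 72 hpl (0.084), psma8 (0.051) and psmg1 (0.059) at 10 dpl, psma6b (0.08), psmb10 (0.073) and psmd8 (0.081) at 14 dpl, and psmb6 at 28 dpl (0.11), while psmb5, psmd14 and psme4b kept theirs at 24 hpl.

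At 14 dpl the retinas apart were replicate 5 for psmb5 (72.7 CPM against 43.5 to 53.5) and psmg3 (40.1 against 18.1 to 25.9), replicate 6 for psmb6 (137 against 76.0 to 98.2) and psmg2 (15.9 against 7.37 to 10.5), and replicate 1 for psmb8a (10.8 against 4.53 to 6.23). At the other times they were 24 hpl replicate 3 for psmf1 (43.5 CPM against 18.2 to 27.4), 36 hpl replicate 4 for psmb10 (15.2 against 3.21 to 6.74), 72 hpl replicate 4 for psme4b (120 against 86.8 to 96.9) and 28 dpl replicate 6 for psmb9a, the one retina apart on the low side (0.458 against 1.5 to 2.11). In naive retinas they were replicate 6 for psmb9a (3.33 pseudo-counts against 0.00458 to 1.04) and replicate 3 for psma6l (4.52 against 0.00759 to 1.23), both genes below the filter of that comparison.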

How the results depend on the processing

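The number of members called at 24, 36 and 72 hpl and at 5 dpl against 0 h stayed within 1.5 times under every alternative run, and no count of members called changed direction. At 10 dpl (15 reported) it was 8 in experiment 1 alone and 6 in experiment 2 alone; at 14 dpl (16) it was 8 with total counts only, 10 with no experiment term, 6 and 9 in the experiments; at 28 dpl (8) it was 3 with no experiment term, 4 and 3 in the experiments. From 24 to 36 hpl (3) it was 5 with DESeq2 and 1 in experiment 1. From 36 to 72 hpl (5) it was 9 with relative log expression, 13 with total counts only, 12 with DESeq2, 3 with limma, 1 with no experiment term, 1 in experiment 1, and 10 without 5 dpl replicate 2 or without 0 h replicate 5. From 72 hpl to 5 dpl (4) it was 2 with no filter, 2 with no experiment term and 0 in experiment 2; from 5 to 10 dpl (21) it was 34 with total counts only, 12 with no experiment term and 6 in experiment 1. The cause of these shifts was not tested, and fewer retinas entered each experiment. Leaving out each replicate in turn gave 30 to 34 members called at 0 h against naive (32 reported) and 12 to 21 at 28 dpl against naive (18). Of the values printed against 0 h at 24 to 72 hpl, in the fits of a single experiment those of psmf1, called in neither fit, changed direction in experiment 2 (-0.12 at 24 hpl and -0.01 at 72 hpl), and that of psmd10 at 72 hpl, 1.15 and called, was -0.15 in experiment 1.

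Scaling by total counts moved the median over all genes by -0.15 (14 dpl) to 0.11 (24 hpl) on the log2 scale. It turned the numbers of all genes higher and lower from 2483 and 2308 to 2872 and 1765 at 24 hpl, from 923 and 373 to 725 and 569 at 10 dpl, from 1111 and 611 to 638 and 1121 at 14 dpl, from 617 and 439 to 417 and 695 at 28 dpl, from 873 and 774 to 706 and 1045 from 36 to 72 hpl, and from 752 and 891 to 535 and 1412 from 5 to 10 dpl. Same-numbered retinas did not deviate together (median correlation -0.00737 over 168 pairs, 1 above 0.1, against 0.00598 for other pairs), so the numbers only name the retinas; with the replicate number as a block 44, 49, 41, 42, 16, 14 and 7 members were called against 0 h in order of time and 32 and 20 against naive. Genes with few reads at 0 h (psmb9a, psmb10, psmb12, psma6l and psmc3ip) are limited by depth.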
